A study of Mus musculus with 12 samples.

Results

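The genes described here are 51 genes of the cell division cycle and of DNA replication, followed in alveolar macrophages from Lmp7 knockout and wild-type mice with and without interleukin-4 (IL-4). They were taken as a list of gene symbols, and the members are the probes that the array's annotation gives these symbols. Of the 51 genes, 45 had a probe (85 probes of 25697 on the array), and 37 had a probe bright enough to test among 6563 tested genes. The 37 comprise 5 of 8 G1 cyclins and kinases, 4 of 5 genes of the G1 inhibitors and the E2F-RB switch, 17 of 21 replication genes, 7 of 13 mitotic genes and all 4 genes for tubulin and chromatin proteins. The symbols Cdk4, Gins2, Rfc3, Ccnb1, Mki67 and Aurkb had no probe here. Ccne2, Cdk6, Cdkn2c, Pold2, Dut, Ccnb2, Cdk1 and Bub1 had probes that were detected on at most 1 of the 12 arrays and were not tested. H2afz carries the symbol H2az1 in the array's annotation.

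Alveolar macrophages are the resident phagocytes of the airspaces. They were washed from the lungs of C57Bl/6J mice aged 8 to 12 weeks and kept specific pathogen-free, with 8 lavages of 1 ml. Every group came from these mice, and the labels set the groups apart by genotype and polarization, with 3 arrays each. Lmp7 knockout cells were cultured with 20 ng/ml of IL-4 for at most 24 h (LMP7ko M2) or left untreated (LMP7ko M0). Wild-type cells were given the same IL-4 (WT M2) or left untreated (WT M0). The sample labels used here name no processing day or batch, and the part of these was not tested. Lmp7 is the protein of Psmb8, the inducible beta5 catalytic subunit of the immunoproteasome. The labels describe the knockout allele no further, and nothing says that the arrays of a group came from separate animals, so p-values measure the spread between these arrays, which may be technical.

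Cells enter division through a switch in G1. D-type cyclins with CDK4 or CDK6, and then cyclin E with CDK2, phosphorylate the retinoblastoma protein RB, which otherwise holds the E2F transcription factors back, and the CDK inhibitors p21 and p27 oppose these kinases. Released E2F drives the genes for DNA replication, and the mitotic genes follow later in the cycle. Alveolar macrophages are known to renew themselves locally in the lung, and in mice IL-4 is known to make tissue macrophages proliferate.

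Psmb8 was detected on 0 of 3 arrays in both LMP7ko groups, at 5.62 to 5.79 in LMP7ko M2 and 5.36 to 5.67 in LMP7ko M0 cells. In WT M2 cells it was at 7.75 to 7.96 and in WT M0 cells at 7.53 to 8.04, detected on all 3 arrays of each. All levels are log2 intensities after background correction and quantile normalization, and the level of one probe cannot be set against that of another. The share of probes detected (detection p under 0.05) was 29.6% ± 3.58 (SD, n = 3) in LMP7ko M2, 30.9% ± 4.26 in LMP7ko M0, 30.6% ± 1.24 in WT M2 and 31.2% ± 3.51 in WT M0 cells. Within each group it was lowest on array a, at 25.5% in LMP7ko M2, 26.1% in LMP7ko M0, 29.2% in WT M2 and 27.3% in WT M0 cells. Array a of LMP7ko M2, LMP7ko M0 and WT M0 cells are the 3 arrays of lowest detected share. The dimmest detected probe of an array lay between 5.81 and 6.36, so levels under about that range are near background. Of 13 alveolar macrophage markers with a probe, 11 were detected on all 12 arrays and Car4 on none.

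The promoters of the members that IL-4 moved are shown first because replication genes share control by E2F. Of the 51 members, 41 matched by symbol in RefSeq's table of promoters (GRCm38.p6, 250 bases before to 50 after the first listed start). On both strands, the E2F words TTTCCCGC, TTTGGCGC and TTTCGCGC were found in 9 of 41 member promoters (22%), against 1.91% of the 27025 genes in the table. The 9 were Cdk2, Mcm3, Mcm5, Mcm6, Mcm7, Cdc6, Cdt1, Rfc3 and Cdk1. The CCAAT box (CCAAT) was present in 25 of 41 (61%), against 37.9% of all genes, and the CHR element (TTTGAA) in 12 of 41 (29.3%), against 18.1%. A match says only that these letters stand in the window. Only the first listed start was searched, and Fen1 and Mcm7 have 2 listed starts each. Among the members past the threshold for IL-4 in either genotype, 14 of 19 matched, with Ccnd2, Mcm4, Rb1, Stmn1 and Ccna2 unmatched. Of these 14, E2F words stood in 5 (Cdk2, Mcm3, Mcm5, Mcm6 and Mcm7; 35.7%), CCAAT in 12 (85.7%) and CHR in 3 (21.4%). The CHR share is near the 18.1% of all genes. Among the 30 tested members that matched, E2F words stood in 7 (23.3%), CCAAT in 18 (60%) and CHR in 9 (30%).

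The 250 bases before the start follow for the 5 matched members of smallest p for IL-4, with E2F words and CCAAT boxes in capitals (a reverse-strand CCAAT reads ATTGG). Cdkn1b (chr6:134920151-134920400, plus strand) is the member that fell in both genotypes, and the others rose: Rpa2 (chr4:132768110-132768359, plus strand), Fen1 (chr19:10204394-10204643, minus strand, with neither motif), Mcm6 (chr1:128359706-128359955, minus strand) and Rrm2 (chr12:24708004-24708253, plus strand).
Cdkn1b: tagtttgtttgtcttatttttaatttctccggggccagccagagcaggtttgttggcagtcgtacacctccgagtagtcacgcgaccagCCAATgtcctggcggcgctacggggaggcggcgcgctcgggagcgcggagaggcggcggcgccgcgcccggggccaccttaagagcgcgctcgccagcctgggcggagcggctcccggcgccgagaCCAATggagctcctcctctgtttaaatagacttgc
Rpa2: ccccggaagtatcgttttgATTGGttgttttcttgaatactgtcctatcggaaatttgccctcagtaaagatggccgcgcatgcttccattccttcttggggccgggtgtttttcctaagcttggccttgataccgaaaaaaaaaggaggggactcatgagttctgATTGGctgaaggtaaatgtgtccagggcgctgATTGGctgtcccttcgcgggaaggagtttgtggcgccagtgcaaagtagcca
Fen1: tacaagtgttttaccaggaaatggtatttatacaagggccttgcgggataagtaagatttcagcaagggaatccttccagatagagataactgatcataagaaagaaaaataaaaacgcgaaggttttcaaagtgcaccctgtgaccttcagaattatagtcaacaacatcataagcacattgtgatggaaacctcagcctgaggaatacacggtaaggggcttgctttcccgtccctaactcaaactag
Mcm6: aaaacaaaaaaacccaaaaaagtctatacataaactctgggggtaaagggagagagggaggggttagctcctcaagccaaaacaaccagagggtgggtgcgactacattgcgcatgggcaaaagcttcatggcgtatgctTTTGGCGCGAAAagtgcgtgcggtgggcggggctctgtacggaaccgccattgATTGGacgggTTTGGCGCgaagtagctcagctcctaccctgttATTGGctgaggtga
Rrm2: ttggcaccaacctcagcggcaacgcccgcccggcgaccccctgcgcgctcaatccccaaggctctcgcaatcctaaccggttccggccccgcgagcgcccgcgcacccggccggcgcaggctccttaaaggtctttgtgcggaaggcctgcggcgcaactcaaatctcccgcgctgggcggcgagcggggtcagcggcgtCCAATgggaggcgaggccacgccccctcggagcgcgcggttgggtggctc

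In the Mcm6 promoter, TTTGGCGC on the plus strand of the gene overlapped TTTCGCGC on the other strand, and a further TTTGGCGC lay nearer the start. Mcm5 held the same kind of overlapping pair, in the opposite order, and Mcm7 held 2 separate words, TTTCCCGC on the other strand before the start and TTTCGCGC after it. Windows around the pair of Mcm5 and the first word of Mcm7, picked after the motif matches were seen, have only the E2F words in capitals. They lie at chr8:75109336-75109387 (plus strand) for Mcm5 and chr5:138172021-138172068 (minus strand) for Mcm7.
Mcm5: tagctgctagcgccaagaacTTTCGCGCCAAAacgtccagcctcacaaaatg
Mcm7: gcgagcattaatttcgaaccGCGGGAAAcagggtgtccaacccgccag

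With IL-4, replication genes and single G1 genes rose in both genotypes and the CDK inhibitor gene Cdkn1b fell. In LMP7ko cells 13 of 37 tested members rose and 2 fell at an adjusted p under 0.05 (limma, Benjamini-Hochberg over 6563 genes), where 10.3% of all tested genes rose and 11.4% fell. In WT cells 14 of 37 rose and 1 fell, where 8.43% of all tested genes rose and 7.62% fell. The median log2 difference (M2 minus M0) of the 37 was 0.41 in LMP7ko and 0.59 in WT cells, beside 0.0036 and 0.003 over all tested genes. The LMP7ko count of 15 was 9 without array b of LMP7ko M2 cells and 8 (7 higher, 1 lower) with arrays scaled only to a common median. Without overlap between M2 and M0 arrays, 20 members were higher and 2 lower in LMP7ko cells, where 17.8% and 18.6% of all tested genes were. In WT cells 23 were higher and 1 was lower, where 17.3% and 16.8% were. A probe was kept if it was detected on any 3 arrays, so a member seen only with IL-4 had to differ. Among the 22 members detected on all 12 arrays, 9 rose and 2 fell in LMP7ko cells, where 13.0% of such genes rose and 12.8% fell. In WT cells 9 of the 22 rose and 1 fell, where 10.2% rose and 9.19% fell. The medians of the 22 were 0.39 in LMP7ko and 0.38 in WT cells. With the few genes undetected in M0 cells set at their lower bound, the medians of the 37 were 0.35 in LMP7ko and 0.38 in WT cells. In LMP7ko cells 2 of these genes had no bound and were set at a difference of 0.

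**Figure D1:**
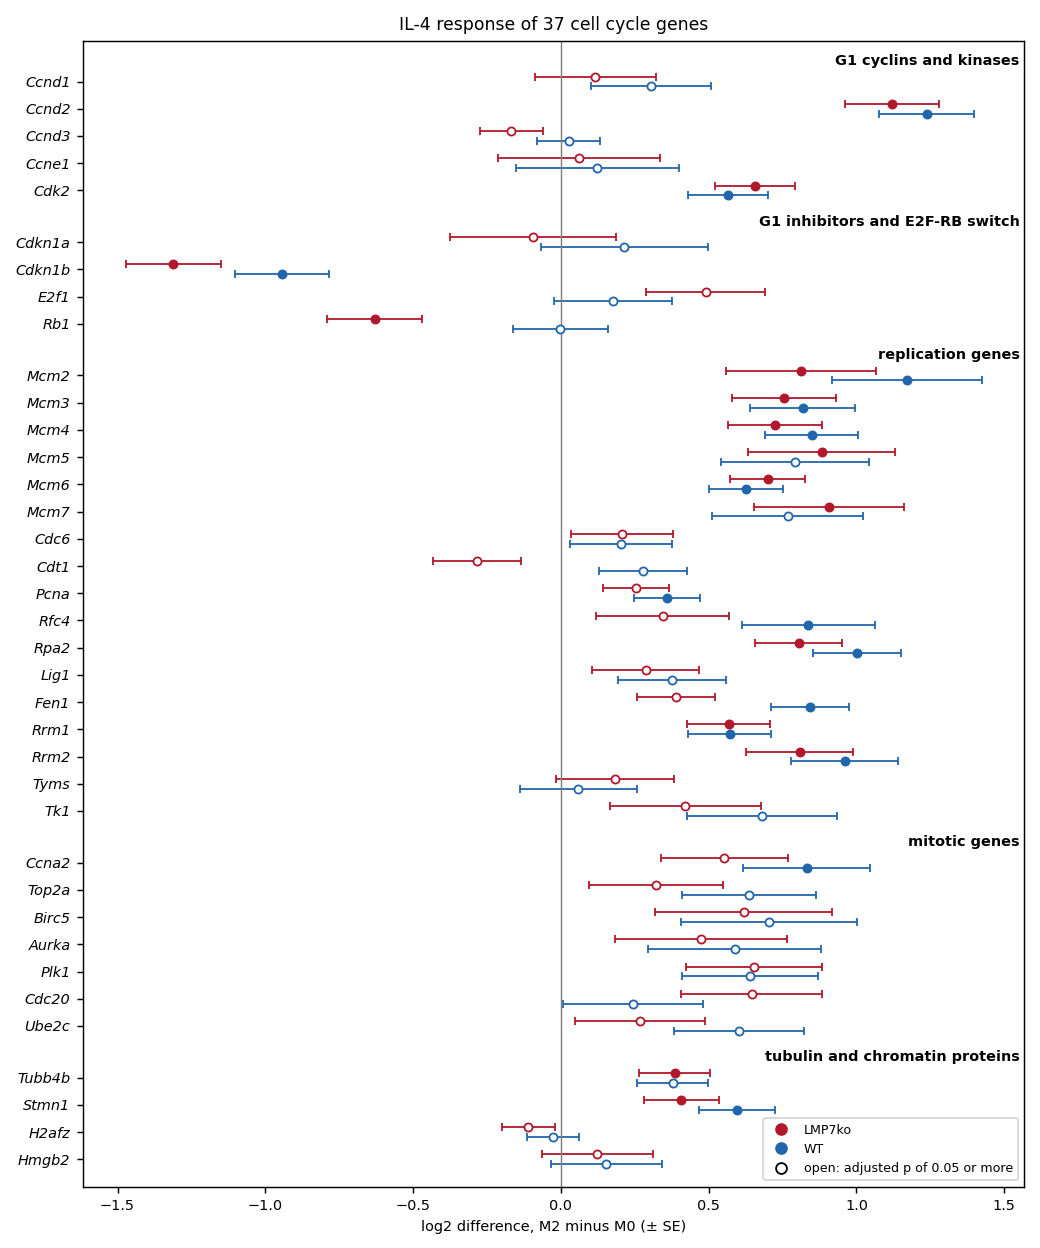
IL-4 response of the 37 tested genes: the horizontal axis is the log2 difference M2 minus M0 with its SE, in LMP7ko (red) and WT cells (blue), filled where the adjusted p was under 0.05, and open otherwise. Replication genes lie to the right of 0 in both genotypes except Cdt1 in LMP7ko cells (-0.28), Cdkn1b lies farthest left (-1.31 in LMP7ko, -0.94 in WT), and values of genes undetected in M0 cells, such as Mcm2, are fitted from levels near background.

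Markers of other cells were listed beside the members. No B cell marker (0 of 5 with a probe) and no eosinophil or basophil marker (0 of 7) was detected on any array, and 7 of 10 T cell markers, Cd3d, Cd3e and Cd3g among them, were detected on none, while the T cell marker Cd2 was detected on all 12. Of 6 NK cell markers with a probe, 4 were detected on no array and Prf1 on all 12. The summed intensity of the 2 kept NK genes was 927 to 1117 in LMP7ko M2, 1014 to 1091 in LMP7ko M0, 829 to 995.2 in WT M2 and 1038 to 1237 in WT M0 cells. Of the monocyte and dendritic cell markers 5 of 6, and of the stroma and endothelium markers 7 of 8, were never detected. In the lung epithelium list, only Cdh1 passed the threshold with IL-4, and it made up most of the list's summed intensity. That sum over 4 kept genes was 2822 to 3385 in LMP7ko M2 and 1162 to 1285 in LMP7ko M0 cells. In WT cells the sum was 2997 to 3228 in M2 and 1358 to 1651 in M0. The mean level of Cdh1 was 11.53 in LMP7ko M2, 10.05 in LMP7ko M0, 11.53 in WT M2 and 10.26 in WT M0 cells. Of the list's 12 markers with a probe, Krt8, Krt18, Krt19, Sftpa1 and Aqp5 were never detected and only Cdh1 was detected on every array. Cdh1, which macrophages given IL-4 are also known to express, rose by 1.48 ± 0.115 in LMP7ko and 1.27 ± 0.115 in WT cells (log2 ± SE). Neutrophil markers moved with IL-4 in both directions. S100a8, detected on all 12 arrays, fell by 1.42 ± 0.152 in LMP7ko and 1.03 ± 0.152 in WT cells. Csf3r, undetected in M2 cells of both genotypes, was at least 1.17-fold lower in LMP7ko M2 than in LMP7ko M0 cells. Cxcr2 rose by 1.47 ± 0.272 in LMP7ko cells and was at least 1.38-fold higher in WT M2 than in WT M0 cells, where it was undetected. Among the alveolar macrophage markers, Siglecf, Marco, Adgre1 and Mertk fell with IL-4 in both genotypes, Marco by 0.96 ± 0.121 in LMP7ko and 1.09 ± 0.121 in WT cells. Chil3, known to be induced by IL-4 in mouse macrophages, rose by 1.504 ± 0.0961 in LMP7ko and 1.62 ± 0.0961 in WT cells, and Krt79 also passed as higher in both. The part of these markers in the results below was not tested. In bulk samples, fewer cells of a type and less RNA per cell cannot be told apart.

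Among the G1 cyclins and kinases, 2 of 5 tested genes rose in each genotype, the same 2, and none fell, where 10.3% of all tested genes rose in LMP7ko and 8.43% in WT cells. Ccnd2, which encodes cyclin D2, stood at 8.80, 8.39 and 8.81 in LMP7ko M2 cells and at 7.29, 7.64 and 7.70 in LMP7ko M0 cells. In WT M2 cells it was at 9.10, 8.90 and 8.67, and in WT M0 cells at 7.55, 7.67 and 7.73. Every M2 array lay above every M0 array. The differences were 1.12 ± 0.160 (adjusted p = 0.0005108) in LMP7ko and 1.24 ± 0.160 (adjusted p = 0.0004511) in WT cells. Cdk2, the kinase partner of cyclins E and A, had levels of 8.99, 8.97 and 8.90 in LMP7ko M2 cells against 8.04, 8.57 and 8.27 in LMP7ko M0 cells. The WT levels of Cdk2 were 9.11, 9.09 and 8.83 in M2 and 8.47, 8.49 and 8.37 in M0 cells. The groups did not overlap in either genotype, and Cdk2 rose by 0.66 ± 0.136 (adjusted p = 0.005439) in LMP7ko and 0.57 ± 0.136 (adjusted p = 0.01633) in WT cells. Its second kept probe differed by 0.32 in LMP7ko and 0.15 in WT cells and did not pass.

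The other D-type cyclins did not pass in any comparison. Ccnd1, cyclin D1, was at 7.73, 7.86 and 7.56 in LMP7ko M2 and 7.67, 7.09 and 8.03 in LMP7ko M0 cells. It was at 8.33, 8.07 and 8.10 in WT M2 and 7.87, 8.03 and 7.69 in WT M0 cells. The LMP7ko M0 arrays held both its lowest level and a level above every LMP7ko M2 array. The WT M2 arrays lay above all others, and the IL-4 differences were 0.12 ± 0.204 in LMP7ko and 0.31 ± 0.204 in WT cells. Ccnd3, cyclin D3, was nearly flat, at 8.98, 9.16 and 9.01 in LMP7ko M2, 9.04, 9.27 and 9.35 in LMP7ko M0, 9.13, 9.07 and 9.13 in WT M2 and 9.17, 9.06 and 9.01 in WT M0 cells. Its differences were -0.17 ± 0.107 in LMP7ko and 0.03 ± 0.107 in WT cells. Ccne1, cyclin E1, was detected on 7 of the 12 arrays and differed by 0.06 in LMP7ko and 0.12 in WT cells.

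**Figure D2:**
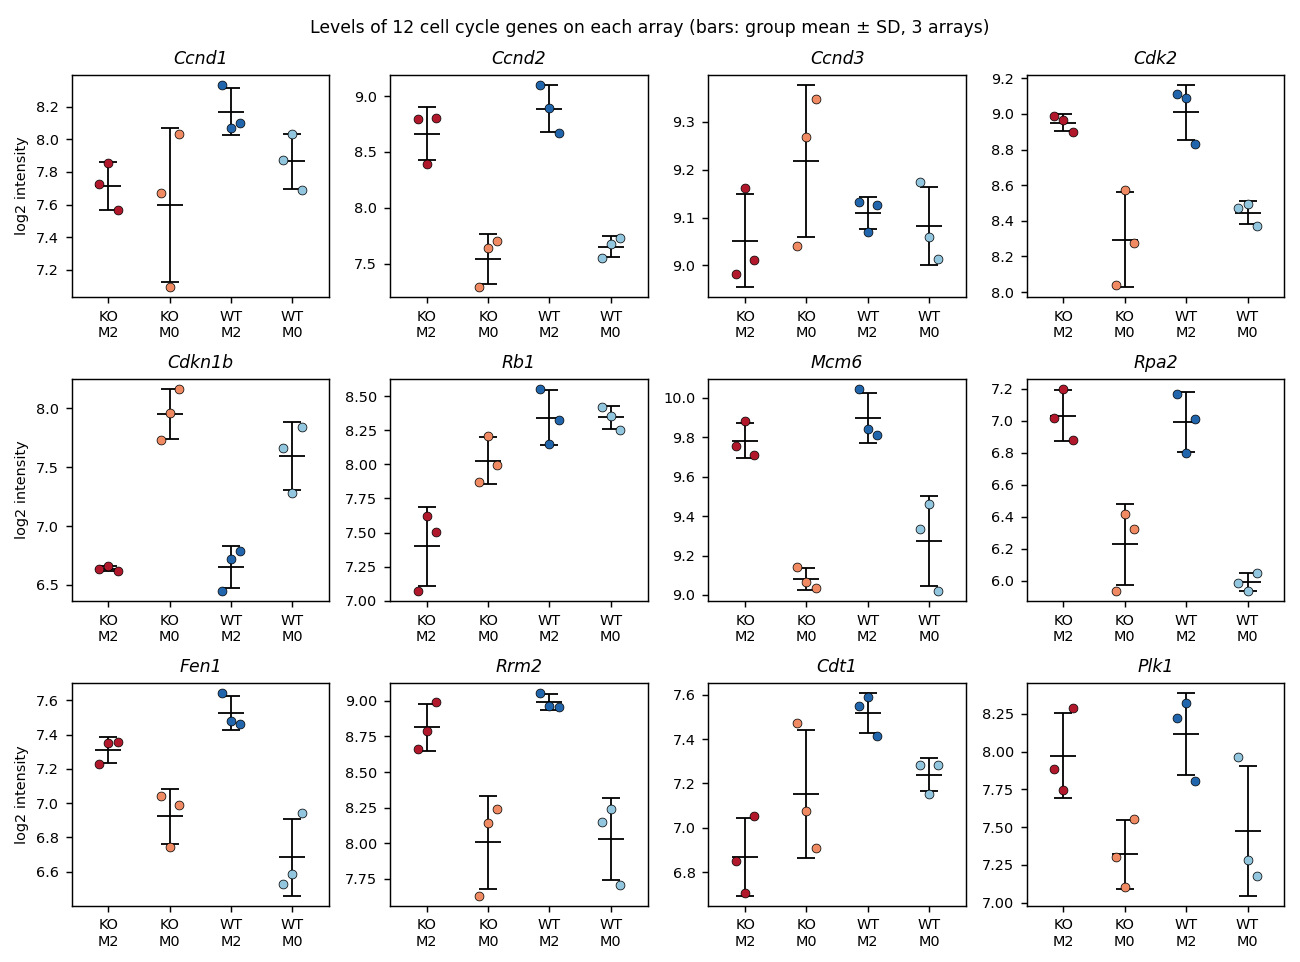
Levels of 12 genes on each array: each panel plots the log2 intensity of 1 gene, with points for the 3 arrays of LMP7ko M2, LMP7ko M0, WT M2 and WT M0 cells and bars for the group mean and SD; each panel has its own vertical scale, and Cdt1 and Plk1 were added after their values were seen. M2 lies above M0 in both genotypes for Ccnd2, Cdk2, Mcm6, Rpa2, Fen1 and Rrm2 and below it for Cdkn1b, and Rb1 is lowest in LMP7ko M2 cells (7.07 to 7.62).

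Of the genes that hold G1 back, Cdkn1b fell in both genotypes. It encodes p27, an inhibitor of cyclin-CDK complexes. Its level was 6.63, 6.66 and 6.62 in LMP7ko M2 cells against 7.73, 7.96 and 8.16 in LMP7ko M0 cells. WT cells had 6.45, 6.72 and 6.79 in M2 and 7.66, 7.28 and 7.84 in M0. M2 and M0 arrays did not overlap in either genotype. Cdkn1b fell by 1.31 ± 0.160 on the log2 scale in LMP7ko cells (adjusted p = 0.0001873) and by 0.94 ± 0.160 in WT cells (adjusted p = 0.002484). The difference between these responses was -0.37 ± 0.227 (adjusted p = 0.9054). Cdkn1a, which encodes the p53 target and CDK inhibitor p21, was at 7.51, 7.19 and 7.88 in LMP7ko M2 and 7.09, 8.10 and 7.68 in LMP7ko M0 cells. In WT cells Cdkn1a was at 7.17, 7.55 and 7.26 in M2 and 7.11, 6.68 and 7.55 in M0. Its groups overlapped, and the IL-4 differences were -0.09 ± 0.281 in LMP7ko and 0.22 ± 0.281 in WT cells, neither past the threshold.

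Rb1, the gene of the retinoblastoma protein, fell with IL-4 in LMP7ko cells. It was at 7.07, 7.62 and 7.51 in LMP7ko M2 and 7.87, 8.21 and 8.00 in LMP7ko M0 cells. In WT cells it was at 8.55, 8.15 and 8.32 in M2 and 8.42, 8.36 and 8.26 in M0. The LMP7ko groups did not overlap and the WT groups did. The log2 difference was -0.63 ± 0.161 (adjusted p = 0.01667) in LMP7ko cells and -0.002 ± 0.161 (adjusted p = 0.9966) in WT cells. The LMP7ko call ended without array a of LMP7ko M2 cells (-0.47), without array b of LMP7ko M0 cells (-0.54), without the 3 arrays of lowest detected share (-0.54) and with arrays scaled only to a common median (-0.68). The second kept Rb1 probe differed by -0.59 ± 0.223 in LMP7ko and -0.30 ± 0.223 in WT cells, past the threshold in neither. E2f1, the activator E2F that RB binds, was at 7.67, 8.22 and 7.66 in LMP7ko M2 and 7.14, 7.55 and 7.39 in LMP7ko M0 cells, without overlap. The WT values of E2f1 were 8.35, 7.78 and 7.76 in M2 and 7.72, 7.99 and 7.66 in M0 cells, which overlapped. Its differences, 0.49 ± 0.201 in LMP7ko (adjusted p = 0.1133) and 0.18 ± 0.201 in WT cells, did not pass.

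Genes of the replication helicase, of single-strand binding and of deoxynucleotide supply rose with IL-4. In LMP7ko cells 9 of 17 tested replication genes rose and none fell, where 10.3% of all tested genes rose, with a median of 0.57 (0.42 at the bound). In WT cells 10 of 17 rose and none fell, where 8.43% of all tested genes rose, with a median of 0.77 (0.63 at the bound). Among the 9 replication genes detected on all 12 arrays, 5 rose in LMP7ko and 6 in WT cells, where 13.0% and 10.2% of such genes rose. The helicase subunits Mcm2, Mcm3, Mcm4 and Mcm6, the single-strand binding protein gene Rpa2 and both ribonucleotide reductase genes Rrm1 and Rrm2 rose in both genotypes. Mcm5 and Mcm7 passed in LMP7ko but not in WT cells, Pcna, Rfc4 and Fen1 passed in WT but not in LMP7ko cells, and none of these 5 passed the test of the difference between genotypes.

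The MCM proteins form the hexamer that opens the double helix at origins. Mcm6 was at 9.75, 9.88 and 9.71 in LMP7ko M2 and 9.14, 9.07 and 9.04 in LMP7ko M0 cells, and at 10.04, 9.84 and 9.81 in WT M2 and 9.33, 9.46 and 9.02 in WT M0 cells. No M2 array overlapped an M0 array, and Mcm6 rose by 0.70 ± 0.126 in LMP7ko and 0.63 ± 0.126 in WT cells. Its 4 kept probes differed by 0.70 to 0.93 in LMP7ko and 0.63 to 1.32 in WT cells. Mcm4 was at 9.57, 9.54 and 9.21 in LMP7ko M2 against 8.43, 8.95 and 8.76 in LMP7ko M0 cells. In WT M2 cells Mcm4 was at 9.67, 9.56 and 9.43, against 8.57, 8.91 and 8.63 in WT M0 cells. It rose by 0.72 ± 0.159 in LMP7ko and 0.85 ± 0.159 in WT cells, without overlap in either. Mcm3, detected on 2 of 3 LMP7ko M0 and 1 of 3 WT M0 arrays, was at 6.44, 6.57 and 6.81 in LMP7ko M2 and 5.65, 5.92 and 5.99 in LMP7ko M0 cells. WT cells had Mcm3 at 6.52, 6.62 and 6.63 in M2 and 5.69, 6.17 and 5.45 in M0. It rose by 0.76 ± 0.177 in LMP7ko and 0.82 ± 0.177 in WT cells, with M0 levels near background.

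Mcm2 was undetected on all 6 M0 arrays, so its change has only a lower bound. Its measured levels were 5.45, 6.45 and 6.39 in LMP7ko M2 and 5.26, 5.18 and 5.40 in LMP7ko M0 cells, and 6.69, 6.12 and 5.96 in WT M2 and 4.97, 5.08 and 5.21 in WT M0 cells. It was at least 1.05-fold higher in LMP7ko M2 than in LMP7ko M0 cells (adjusted p = 0.04095). In WT cells Mcm2 was higher in M2 by at least 1.2-fold (adjusted p = 0.009639). The bound takes the dim group at the dimmest detected probe of each array. The LMP7ko call held in 3 of the 12 fits that each left out 1 array. Mcm5 rose by 0.88 ± 0.249 in LMP7ko cells (adjusted p = 0.02639) and differed by 0.79 ± 0.249 in WT cells (adjusted p = 0.05276). Mcm7 rose by 0.91 ± 0.255 in LMP7ko cells (adjusted p = 0.02611) and was at least 1.31-fold higher in WT M2 than in WT M0 cells, where it was undetected (adjusted p = 0.06593). The fits without 1 array kept the LMP7ko call of Mcm5 in 9 of 12 and that of Mcm7 in 8 of 12.

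Behind the helicase, Rpa2 coats the opened single strand. It was at 7.02, 7.20 and 6.88 in LMP7ko M2 against 5.94, 6.42 and 6.32 in LMP7ko M0 cells, and at 7.17, 6.80 and 7.01 in WT M2 against 5.99, 5.94 and 6.05 in WT M0 cells. All M2 arrays were higher than all M0 arrays, and Rpa2 rose by 0.81 ± 0.147 (adjusted p = 0.0025) in LMP7ko and 1.00 ± 0.147 (adjusted p = 0.001065) in WT cells. Rpa2 was detected on 2 of 3 M0 arrays in each genotype, with M0 levels near background. Fen1, the nuclease that trims the flaps of Okazaki fragments, was at 7.23, 7.35 and 7.36 in LMP7ko M2 and 7.04, 6.74 and 6.99 in LMP7ko M0 cells. The WT levels of Fen1 were 7.64, 7.48 and 7.46 in M2 and 6.53, 6.58 and 6.94 in M0 cells. The groups of both genotypes were apart, with a rise of 0.84 ± 0.132 in WT cells (adjusted p = 0.00151) and a difference of 0.39 ± 0.132 in LMP7ko cells (adjusted p = 0.05735). The difference between the responses of Fen1 was -0.45 ± 0.186 (adjusted p = 0.7246). Pcna, the sliding clamp, rose by 0.36 ± 0.111 in WT cells (adjusted p = 0.04924), a call kept in 2 of 12 fits without 1 array, and differed by 0.25 ± 0.111 in LMP7ko cells (adjusted p = 0.1369). Rfc4, a subunit of the clamp loader, rose by 0.84 ± 0.225 in WT cells (adjusted p = 0.02675) and differed by 0.35 ± 0.225 in LMP7ko cells. It was detected on 1 of 3 M0 arrays in each genotype, with M0 levels near background. The WT call of Rfc4 was kept in 7 of 12 fits without 1 array.

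Ribonucleotide reductase makes the deoxynucleotides for replication, and the genes of both its subunits rose. Rrm2, the regulatory subunit that cycles with S phase, was at 8.66, 8.79 and 8.99 in LMP7ko M2 and 7.63, 8.14 and 8.24 in LMP7ko M0 cells. The WT levels of Rrm2 were 9.05, 8.97 and 8.95 in M2 and 8.15, 8.24 and 7.70 in M0 cells. M2 lay above M0 without overlap in both genotypes, by 0.81 ± 0.181 (adjusted p = 0.00816) in LMP7ko and 0.96 ± 0.181 (adjusted p = 0.00444) in WT cells. Rrm1, the catalytic subunit, was at 9.11, 9.27 and 9.07 in LMP7ko M2 and 8.59, 8.51 and 8.64 in LMP7ko M0 cells, and at 9.24, 9.17 and 9.08 in WT M2 and 8.76, 8.77 and 8.24 in WT M0 cells. It rose by 0.57 ± 0.141 in each genotype, again without overlap. By the brightest kept probe, Tk1, Tyms, Lig1 and Cdc6 did not pass in either genotype. They differed by 0.18 to 0.42 in LMP7ko and 0.06 to 0.68 in WT cells. A second kept Tk1 probe, detected on 5 arrays, passed in WT cells (0.77 ± 0.229, limma over all kept probes, adjusted p = 0.04353). In LMP7ko cells it differed by 0.62 and did not pass. The other kept Lig1 probes differed by 0.71 and 0.28 in LMP7ko and by 0.83 and 0.78 in WT cells, and did not pass. The licensing factor gene Cdt1 differed by -0.28 ± 0.148 in LMP7ko and 0.28 ± 0.148 in WT cells and passed in neither.

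**Figure D3:**
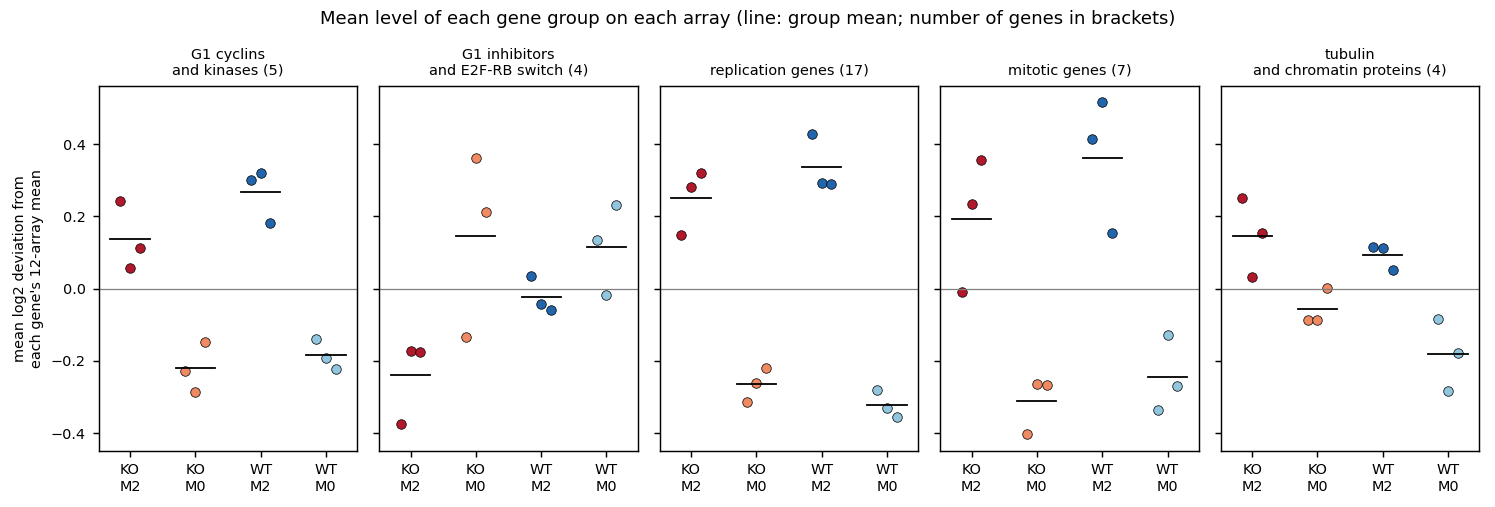
Mean level of each gene group on each array: the vertical axis is the mean, over the tested genes of the group, of the log2 deviation from each gene's mean over the 12 arrays, with points for arrays and a line for the group mean. For the 17 replication genes the M2 arrays lie at 0.15 to 0.32 in LMP7ko and 0.29 to 0.43 in WT cells, and the M0 arrays at -0.31 to -0.22 in LMP7ko and -0.35 to -0.28 in WT cells. Genes undetected in M0 cells are included, which can add to this order.

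Of the 17 replication genes 9 were detected on all 12 arrays, and of the 7 mitotic genes Plk1 alone was. The filter can therefore add to the order of the plotted means, and its part was not tested. Averaged over those 9 replication genes, the means were 0.10, 0.26 and 0.26 on the LMP7ko M2 arrays and -0.32, -0.26 and -0.24 on the LMP7ko M0 arrays. On WT arrays these means were 0.40, 0.37 and 0.28 in M2 and -0.23, -0.23 and -0.37 in M0 cells, so every M2 array lay above every M0 array. The means over all 7 mitotic genes were -0.01, 0.23 and 0.36 on the LMP7ko M2 arrays and -0.40, -0.26 and -0.27 on the LMP7ko M0 arrays. On WT arrays they were 0.42, 0.52 and 0.15 in M2 and -0.34, -0.13 and -0.27 in M0 cells. Array a of LMP7ko M2 cells, the one with the lowest detected share, was the lowest of the M2 arrays in the mean of the 9 replication genes and in that of the 7 mitotic genes. Array a of WT M2 cells had the lowest detected share of its group (29.2%) but the highest mean of the 9 replication genes (0.40). Among M0 arrays, array a had the lowest mean of these 9 genes in LMP7ko cells but not in WT cells. The part of the detected share was not tested.

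Few single mitotic genes passed. In LMP7ko cells 0 of 7 tested mitotic genes passed, where 10.3% of all tested genes rose. Of the 7, 3 had an unadjusted p under 0.05 (limma), as had 2158 of all 6563 tested genes. The median difference was 0.55 (0.27 at the bound, with 2 genes that had no bound set at 0). In WT cells 1 of 7 passed, near the 8.43% of all tested genes that rose. At an unadjusted p under 0.05 there were 5 of the 7 (limma), beside 1867 of all 6563 tested genes. The WT median was 0.64 (0.59 at the bound). Ccna2, which encodes the S and G2 cyclin A2, was at 6.31, 6.50 and 6.30 in LMP7ko M2 and 5.61, 5.92 and 5.93 in LMP7ko M0 cells, and at 7.24, 7.33 and 6.41 in WT M2 and 5.99, 6.30 and 6.20 in WT M0 cells. M2 was above M0 without overlap in both genotypes, with a rise of 0.83 ± 0.214 in WT cells (adjusted p = 0.02234) and a difference of 0.55 ± 0.214 in LMP7ko cells (adjusted p = 0.09422). The WT call was kept in 8 of 12 fits without 1 array. Top2a, the topoisomerase that untangles chromosomes, was undetected on all 6 M0 arrays. Its levels were 5.33, 6.03 and 6.20 in LMP7ko M2 and 5.61, 5.50 and 5.49 in LMP7ko M0 cells, and 6.03, 6.52 and 5.98 in WT M2 and 5.29, 5.81 and 5.52 in WT M0 cells, near background throughout and past the threshold in neither genotype. Plk1, a kinase of mitotic entry that was detected on all 12 arrays, differed by 0.65 ± 0.230 in LMP7ko (adjusted p = 0.06656) and 0.64 ± 0.230 in WT cells (adjusted p = 0.08679). Birc5, Aurka, Cdc20 and Ube2c did not pass either. The number of the 10 mitotic genes with a probe that were detected was 3, 6 and 7 on the LMP7ko M2 arrays, 2, 4 and 3 on the LMP7ko M0 arrays, 5, 6 and 6 on the WT M2 arrays and 1, 4 and 4 on the WT M0 arrays. Ccnb2, Cdk1 and Bub1, genes of the mitotic kinase and the spindle checkpoint, were detected on no array.

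Of the tubulin and chromatin genes, Stmn1 rose in both genotypes. Stmn1 encodes stathmin, which destabilizes microtubules. It was at 8.95, 8.84 and 9.05 in LMP7ko M2 against 8.49, 8.43 and 8.69 in LMP7ko M0 cells, and at 9.09, 8.98 and 8.79 in WT M2 against 8.44, 8.47 and 8.16 in WT M0 cells. The rises were 0.41 ± 0.127 (adjusted p = 0.04078) in LMP7ko, kept in 6 of 12 fits without 1 array, and 0.60 ± 0.127 (adjusted p = 0.008942) in WT cells, kept in 12. Tubb4b, a beta-tubulin, was at 9.52, 9.44 and 9.58 in LMP7ko M2 and 8.94, 9.20 and 9.25 in LMP7ko M0 cells, and at 9.11, 9.26 and 9.07 in WT M2 and 8.71, 8.64 and 8.95 in WT M0 cells. Neither genotype's groups overlapped. It rose by 0.39 ± 0.121 in LMP7ko cells (adjusted p = 0.04113), a call kept in 4 of 12 fits, and differed by 0.38 ± 0.121 in WT cells (adjusted p = 0.05597). H2afz and Hmgb2, a histone variant and a chromatin protein of dividing cells, differed by -0.11 to 0.15 and did not pass in either genotype.

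Between genotypes, Rb1 in M2 cells was the member past the threshold. In M0 cells 0 of 37 passed, where 0.686% of all tested genes passed, and the median LMP7ko minus WT difference was 0.0097. At an unadjusted p under 0.05 (limma) there were 2 of the 37, beside 648 of all 6563 tested genes. Rb1, E2f1 and Ccna2 were lower in every LMP7ko M0 array than in every WT M0 array. These 3 of 37 are near the 7.39% of all tested genes separated in that direction. None of the members was separated upwards, where 7.39% of all tested genes were. In M2 cells 1 of 37 passed, Rb1, where 2.04% of all tested genes passed and 1.37% were lower, and the median was -0.06. In this comparison 4 of 37 members (Rb1, Cdt1, Ccnd1 and Fen1) were lower in LMP7ko M2 than in WT M2 cells without overlap. That is near the 10.3% of all tested genes that were. Tubb4b alone was higher without overlap, where 8.97% of all tested genes were.

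**Figure D4:**
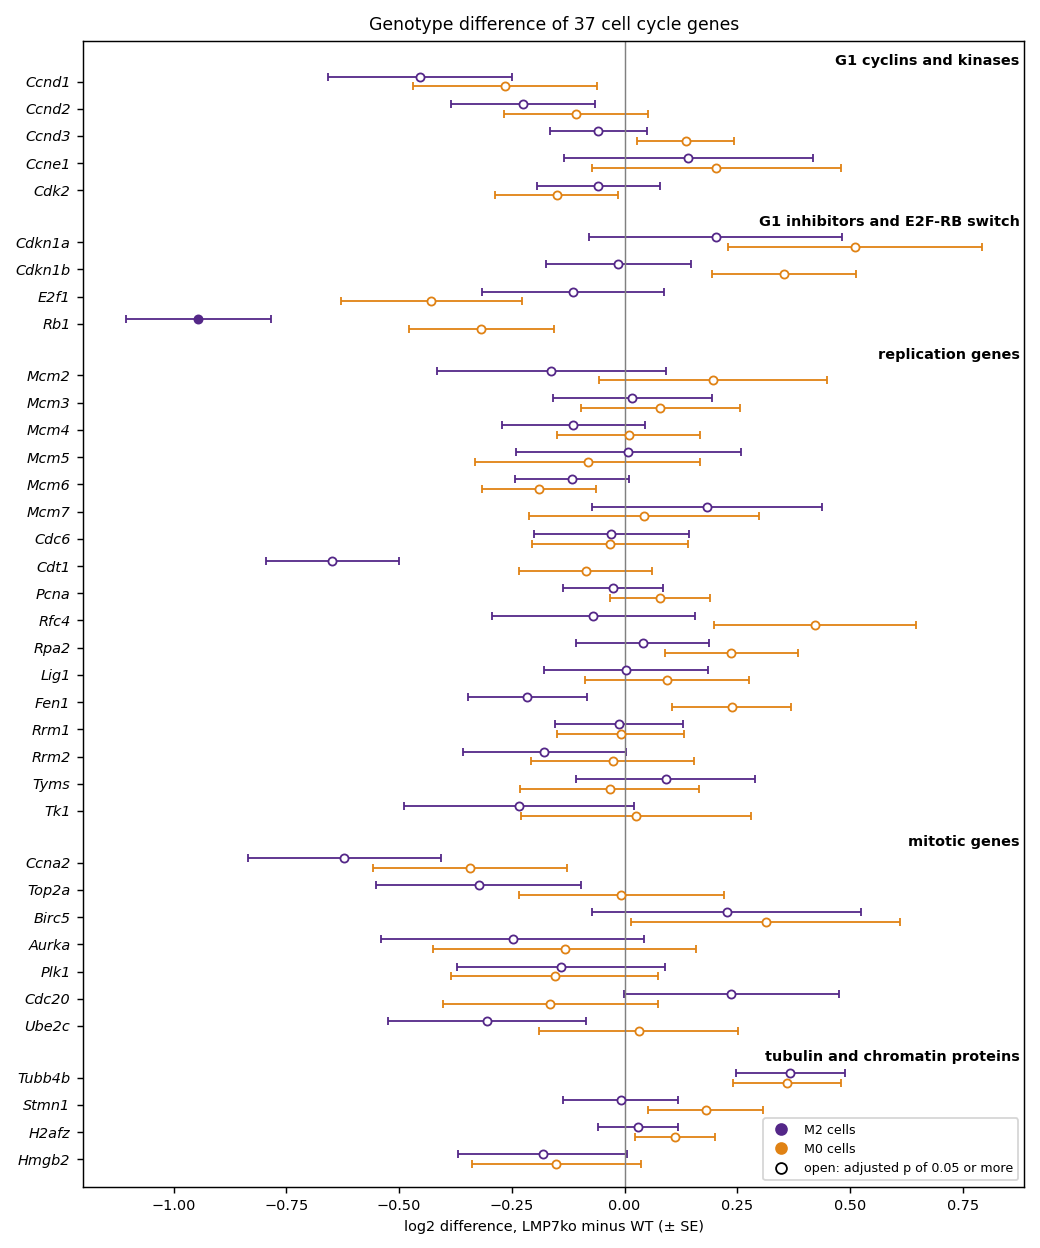
Genotype difference of the 37 tested genes: the horizontal axis is the log2 difference LMP7ko minus WT with its SE, in M2 cells (purple) and M0 cells (orange), filled where the adjusted p was under 0.05. The filled point is Rb1 in M2 cells (-0.94), and Cdt1 lies at -0.65 in M2 cells with an adjusted p of 0.05051.

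Rb1 was lower in LMP7ko M2 than in WT M2 cells by a log2 difference of -0.94 ± 0.161 (adjusted p = 0.01425), with the arrays given above and no overlap. In M0 cells the difference was -0.32 ± 0.161 (adjusted p = 0.5835). The second Rb1 probe gave -0.74 ± 0.223 in M2 cells (adjusted p = 0.1526) and -0.44 ± 0.223 in M0 cells. The call ended without array a of WT M2 cells (-0.84), without the 3 arrays of lowest detected share (-0.78) and with scaling to a common median (-1.01). Cdt1, the origin licensing factor, was at 6.85, 6.70 and 7.05 in LMP7ko M2 against 7.55, 7.59 and 7.42 in WT M2 cells. In M0 cells it was at 7.47, 7.08 and 6.91 in LMP7ko and 7.28, 7.15 and 7.28 in WT cells. The M2 groups of Cdt1 did not overlap, with a difference of -0.65 ± 0.148 (adjusted p = 0.05051). Ccnd1 differed by -0.45 ± 0.204 (adjusted p = 0.405) between LMP7ko M2 and WT M2 cells, and Tubb4b by 0.37 ± 0.121 (adjusted p = 0.184).

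In the neutrophil list, only Cxcr2 passed the threshold between genotypes. The list's summed intensity over 4 kept genes, Cxcr2 included, was 441 to 622 in LMP7ko M2 against 253 to 339 in WT M2 cells. In M0 cells the sum was 460 to 609 in LMP7ko against 316 to 364 in WT. S100a8 did not pass between genotypes, with means of 6.74 in LMP7ko M2, 6.58 in WT M2, 8.16 in LMP7ko M0 and 7.61 in WT M0 cells. Of the list's 9 markers with a probe, S100a9, Mmp8, Mmp9, Ngp and Retnlg were never detected. Cxcr2 was higher in LMP7ko than in WT cells by 1.86 ± 0.272 in M2 and by at least 1.8-fold in M0 cells, where WT arrays did not detect it. The alveolar macrophage marker Marco was lower in LMP7ko than in WT cells, with log2 differences of -1.14 ± 0.121 in M2 and -1.27 ± 0.121 in M0 cells. The part of these in the Rb1 difference was not tested.

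Whether the response to IL-4 itself differed between genotypes was tested as LMP7ko response minus WT response. None of the 37 passed, where 0.107% of all tested genes passed, and the median was -0.11. At an unadjusted p under 0.05 (limma) there were 3 of the 37, near the share of all tested genes (436 of 6563). The 3 were Rb1 (-0.63 ± 0.227, adjusted p = 0.6683), Cdt1 (-0.56 ± 0.209, adjusted p = 0.6757) and Fen1. The MCM genes had differences between responses of -0.36 to 0.14, each smaller than its SE.

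Outside the 51 members, 149 further genes of the same pathway were listed and 70 could be tested. With IL-4, 15 of the 70 rose and 1 fell in LMP7ko cells, where 10.3% of all tested genes rose, and 18 rose and 1 fell in WT cells, where 8.43% rose, with a median of 0.25 in each. Among the 34 of them detected on all 12 arrays, 5 rose in LMP7ko cells, near the 13.0% of all such genes, and 7 in WT cells, where 10.2% of such genes rose, with medians of 0.14 and 0.09. In LMP7ko minus WT, none passed in M0 cells (limma; 10 at an unadjusted p under 0.05) or M2 cells (5), nor in the difference of the responses (7). Of all 6563 tested genes, 648, 793 and 436 had an unadjusted p under 0.05 in these comparisons. Of 30 further replication genes, 9 rose and 1 fell in LMP7ko and 11 rose in WT cells, with medians of 0.36 and 0.35. Among the 15 of these detected on all 12 arrays, 2 rose and 1 fell in LMP7ko and 3 rose in WT cells, with medians of 0.16 and 0.15, and the LMP7ko share was near that of all such genes. Uhrf1, which marks newly copied DNA for methylation, rose by 1.71 ± 0.261 in LMP7ko and 1.60 ± 0.261 in WT cells. Ung, the uracil-DNA glycosylase, rose by 1.17 ± 0.151 in each, and Ctps, a CTP synthase, by 1.16 ± 0.225 in LMP7ko and 1.48 ± 0.225 in WT cells. Rpa3, a small partner of Rpa2, rose by 0.96 ± 0.158 in LMP7ko and 0.90 ± 0.158 in WT cells. In each genotype Ctps was detected on 1 of 3 M0 arrays and Rpa3 on 2 of 3, with M0 levels near background. Rfc1, the large clamp loader subunit, fell by 0.97 ± 0.185 in LMP7ko cells.

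Of 18 further G1 and checkpoint genes, 3 rose in LMP7ko cells, and 2 rose and 1 fell in WT cells, near the 10.3% and 8.43% of all tested genes that rose, with medians of -0.01 and 0.09. Cks1b, the CDK-binding protein needed for the degradation of p27, rose by 1.14 ± 0.120 in LMP7ko and 1.17 ± 0.120 in WT cells. Tfdp1, the dimer partner of the E2F proteins, rose by 0.42 ± 0.119 in LMP7ko and 0.81 ± 0.119 in WT cells. The stress-inducible Gadd45a fell by 0.99 ± 0.149 in WT cells, where it was detected on 1 of 3 M2 arrays. Of 22 further mitotic genes, 3 rose in LMP7ko cells, near the 10.3% of all tested genes, and 5 in WT cells, where 8.43% of all rose, and none fell. Among the 8 of these detected on all 12 arrays, 0 rose in LMP7ko (limma, also 0 at an unadjusted p under 0.05) and 2 in WT cells. Of all genes so detected, 13.0% rose in LMP7ko and 10.2% in WT cells. Prc1, a protein of the spindle midzone, rose by 1.14 ± 0.128 in LMP7ko and 0.72 ± 0.128 in WT cells, and the chromokinesin gene Kif22 rose by 1.30 ± 0.200 in LMP7ko cells. Prc1 was detected on 2 of 3 M0 arrays in each genotype and Kif22 on 2 of 3 LMP7ko M0 arrays, with these M0 levels near background. The centromere histone gene Cenpa rose by 0.63 ± 0.149 in WT cells.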

How the data were processed

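Per the file headers, the authors' non-normalized table holds an intensity and a detection p-value for each of 25697 probes on 12 arrays. The intensities as deposited were whole numbers, -72 at the lowest and 12659 at the highest. The authors' processed table, deposited as linear intensities from 16 to 11275 with replicate numbers, served as an alternative. Per the labels' protocols, RNA was purified on columns with DNase, amplified by a whole-transcriptome method and labelled with biotin. For the scanner software and the genome build, names are not given in the sources used here. In the first table a column names its group but not its replicate, and the letters a, b and c for arrays follow column order within a group.

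Of the probes, 23978 had 1 gene symbol in the platform annotation, 0 had several and 1719 had none. Background was corrected by normexp (limma 3.58.1, R 4.3.3), with an offset of 16 and the controls' spread inferred from the detection p-values. Quantile normalization and log2 followed. Probes detected at p under 0.05 on at least 3 arrays were kept (9200, of which 8626 were named), and the brightest kept probe stood for a gene. All arrays entered 1 model with 4 group means and 8 residual degrees of freedom (lmFit, eBayes) and 5 contrasts: the IL-4 response in each genotype, LMP7ko minus WT in each polarization state, and the LMP7ko response minus the WT response. Benjamini-Hochberg adjustment ran over 6563 genes, with a threshold of 0.05, and ± is the SE of that model unless given as SD. The steps were tested on simulated data. The number of arrays limits the precision.

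The members, the pathway and marker lists, and the tests were chosen with earlier results of these data known. Every member may be named. Values of every array are given for members past the threshold and for a set list of G1, MCM and mitotic genes, at most the 8 of smallest p in a group of genes. Further pathway genes may be named up to 6 per list and contrast. Promoters were drawn for the 5 matched members of smallest p for IL-4. Replicate numbers, compared in the processed table, gave 18 same-number pairs with correlations of -0.0175 to 0.396, 12 of them over 0.1. Not every pair passed 0.1, so the numbers were not taken to pair the arrays. That rule cannot exclude a pairing by number. Alternatives were an offset of 50, no normexp with a floor of 16, cyclic loess, median scaling, other detection filters, the mean of a gene's probes, the processed values with and without a replicate block, array weights and leaving out arrays. Plots used matplotlib 3.10.9 in Python 3.11.15.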

Additional observations from a re-analysis of the deposited data

How the results depend on the processing

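Among 31 calls of a member in a contrast, 15 were kept in all settings that tested them, and in no setting did a called value change sign. The LMP7ko IL-4 count of 15 was 8 with median scaling, and 9 to 15 when each array was left out in turn, lowest without array b of LMP7ko M2 cells. With median scaling 750 of all 6563 tested genes passed in that contrast, against 1422 with quantile normalization. The WT IL-4 count was 15 (10 to 18 when arrays were left out). The M2 genotype count of 1 was 0 with median scaling and 0 without the 3 arrays of lowest detected share. It was 2, both lower, with an offset of 50, cyclic loess, detection at 0.01 on all arrays, the mean of a gene's probes, the processed values (also with a replicate block) and array weights. It was 0 to 2 when arrays were left out, with 0 without array a of WT M2 cells. The M0 genotype count and the count for the difference of the responses were 0 in every setting.

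The median LMP7ko IL-4 difference of the members, 0.41, was 0.31 with an offset of 50, 0.47 without normexp, 0.32 with the processed values, with or without the replicate block, and 0.50 without the 3 arrays of lowest detected share (0.36 to 0.45 when arrays were left out). The WT median, 0.59, was 0.40 with an offset of 50, 0.38 without a filter and with the strict filter (detection at 0.01 on all arrays), and 0.43 with the processed values, with or without the replicate block (0.49 to 0.64). The M0 genotype median, 0.0097, was -0.082 with the strict filter and 0.10 without the same 3 arrays (-0.022 to 0.079), the M2 one -0.12 to -0.02, and that of the difference of the responses -0.18 to -0.076. The causes were not tested.

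Compared with the processed values alone, the replicate block kept the LMP7ko count at 15 and moved the WT count from 17 to 19, and 10 of 12 arrays correlated best with their own number, a hint from the data. Median scaling ended the IL-4 calls of Cdk2, Rb1, Mcm4, Mcm5, Rrm1, Tubb4b and Stmn1 in LMP7ko cells and of Cdk2, Pcna, Rrm1 and Stmn1 in WT cells. Calls that ended without single arrays were, in LMP7ko cells, Mcm2, Mcm5, Mcm7, Rrm1, Tubb4b, Stmn1 and Rb1, and in WT cells Cdk2, Pcna, Rfc4, Rrm1 and Ccna2. The genotype difference of Cdt1 in M2 cells passed in 9 of 23 settings. Levels near 6 log2 units, as for Mcm2, Mcm3, Mcm7, Rfc4, most mitotic genes and Rpa2 in M0 cells, are limited by background.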
